A study of Homo sapiens with 6 samples.

Results

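The respiratory chain and the ATP synthase carry out oxidative phosphorylation in the inner mitochondrial membrane, and 74 of their genes, assembly factors and related transcripts included, were followed here among 11963 genes named on the array. They were chosen by symbol. A gene was taken when its symbol starts with NDUFA, NDUFB, NDUFC, NDUFS, NDUFV, UQCR, COX4 to COX8 or ATP5, or is SDHA, SDHB, SDHC, SDHD or CYC1. Of the 74 genes, 65 encode subunits, 28 of complex I, 3 of complex II, 7 of complex III, 12 of complex IV and 15 of complex V. The remaining 9 share the prefix without belonging to a complex. They are the complex I assembly factors NDUFAF1, NDUFAF3, NDUFAF4, NDUFAF5 and NDUFAF7, the supercomplex factor COX7A2L, the ATP synthase inhibitor ATP5IF1, the antisense transcript NDUFB2-AS1 and the pseudogene ATP5MC2P1. Another 9 probe sets with such a symbol are annotated to several genes and stayed unnamed, so that NDUFS5, NDUFS8, NDUFC2, UQCRH and ATP5MF were not analysed here, nor were SDHB or NDUFA4.

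The series compared WI-38 fibroblasts that overexpressed RASv12, a constitutively active RAS protein, and are labelled senescent, with growing wild-type WI-38 fibroblasts. WI-38 is a normal human diploid strain from fetal lung. Each group had 3 samples, each read on 1 single-colour oligonucleotide array, and the protocol shared by all samples describes culture and retroviral gene transfer at 3% oxygen. The RAS gene used, whether wild-type cells received an empty vector, and whether samples of a group were separate cultures are not in the labels, so p-values here reflect the spread among the samples, which may be technical. RNA was amplified before labelling. The labels give Cy3 for the RASv12 samples and Cy5 for the controls, and dye and group cannot be told apart. HRAS, a RAS family member common in such models, had an intensity of 853 ± 123 in RASv12 cells and 215 ± 23 in control cells (SD, n = 3 each).

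The cell type and the arrays were checked first. On each array 48.6% to 54.1% of probe sets exceeded 27.98, the highest intensity of 27 probe sets for bacterial transcripts that serve as a floor. All 13 measured fibroblast markers lay above it on all 6 arrays. Their summed intensity ran from 10750 to 12671 on the RASv12 arrays and from 23846 to 26176 on the control arrays, and 10 of the 13 were called lower. Of the markers of other cells, 0 of 6 endothelial, 0 of 5 leukocyte, 0 of 7 muscle and 1 of 8 epithelial genes (KRT18) lay above the floor on all arrays. The part of the lower fibroblast markers in the values below was not tested. In such bulk samples, fewer cells of a type and less RNA per cell cannot be told apart.

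In oxidative phosphorylation, electrons from NADH enter at complex I and electrons from succinate at complex II, pass through ubiquinone to complex III and by cytochrome c to complex IV, which reduces oxygen. Complexes I, III and IV pump protons, and complex V, the ATP synthase, uses their return to make ATP. Most subunits are encoded in the nucleus, as all members here are, while mitochondrial DNA encodes a few hydrophobic ones. Fibroblasts in culture obtain ATP from both glycolysis and this pathway, and altered mitochondria are a known feature of cells arrested by oncogenic RAS.

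The members moved little. In RASv12 cells 5 of the 74 genes rose and 13 fell (limma, adjusted p under 0.05), and 56 did not pass. The called share, 24.3%, lay near the background, since 29.4% of all genes were called. By direction, 6.76% of members against 13.9% of all genes were higher, and 17.6% of members against 15.5% of all genes were lower. No member changed by 2-fold or more, the largest change being 1.77-fold, while 8.57% of all genes and 9.77% of the 5865 genes above the floor on every array did. The members' median log2 change was -0.12 and that of all genes 0.02. The middle 50% of members lay between -0.27 and 0.033, a width of 0.31, against a width of 0.65 for genes above the floor on every array. Members were bright, with a median intensity of 636 against 45.6 for all genes, and 69 of the 74 lay above the floor on all arrays. Their spread was not set against genes of like brightness, so the part of brightness in it was not tested. The groups did not overlap in deposited intensity for 30 members, or 40.5%, against 41.6% of all genes, and all 18 called members were among them. The plot of changes by complex shows this narrow spread around 0.

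**Figure D1:**
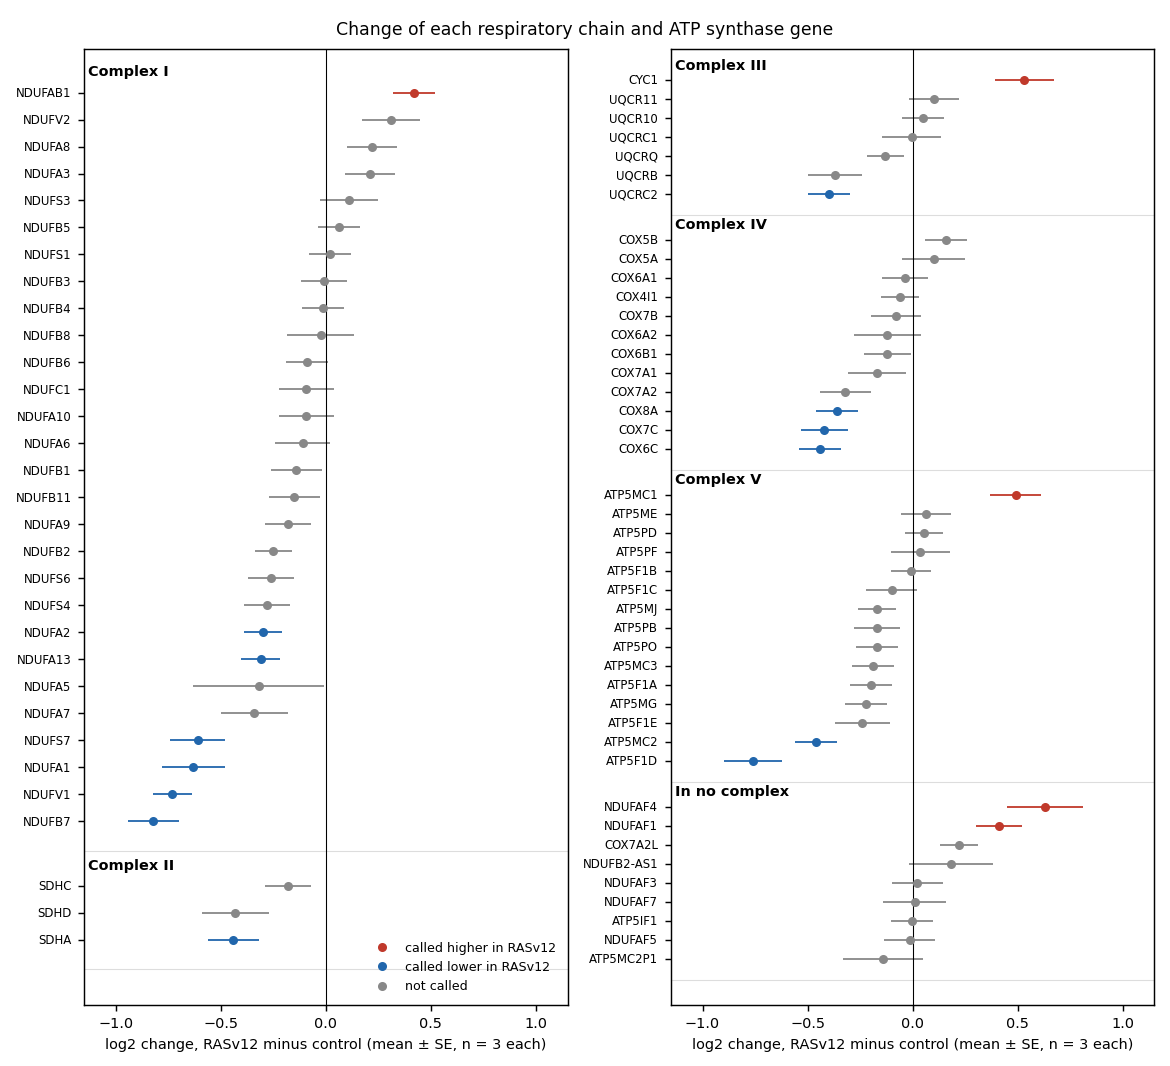
Log2 change of each of the 74 members, RASv12 minus control (x axis, mean ± SE, n = 3 arrays each), with genes in rows grouped by complex and colour giving the call. All changes lie between -0.82 for NDUFB7 and 0.63 for NDUFAF4, and most lie left of 0.

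The direction of the whole group depended on how the arrays were scaled. All 18 hybridization control probe sets, which read RNA added in fixed amounts, had a lower signal in the RASv12 samples, with a mean log2 change of -0.34. Scaling the arrays to them moved the median of all genes to 0.20 and that of the members to 0.22, so that 21 members were called higher and 2 lower, against 23.6% and 8.7% of all genes. Those are 28.4% and 2.7% of the members. Relative to the median of all genes, the members' median was thus at -0.14 in the quantile-normalized fit and at 0.024 with that scaling. The pseudocount of 16 was added after scaling, so scaling moved dim genes less than bright ones. Members had a median intensity of 636 against 45.6 for all genes. No background of like brightness was taken, so the place of the members among all genes under that scaling was not tested. All 5 rises were also called with the hybridization controls, namely NDUFAB1, CYC1, ATP5MC1 and the assembly factors NDUFAF1 and NDUFAF4. Of the 13 falls only NDUFB7 and NDUFV1 were, and 2 of the other falls, NDUFA2 and NDUFA13, had the opposite sign. RNA was amplified before labelling, so the hybridization controls do not measure RNA per cell. Which scaling is nearer to the RNA content of the cells cannot be told from these arrays.

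**Figure D2:**
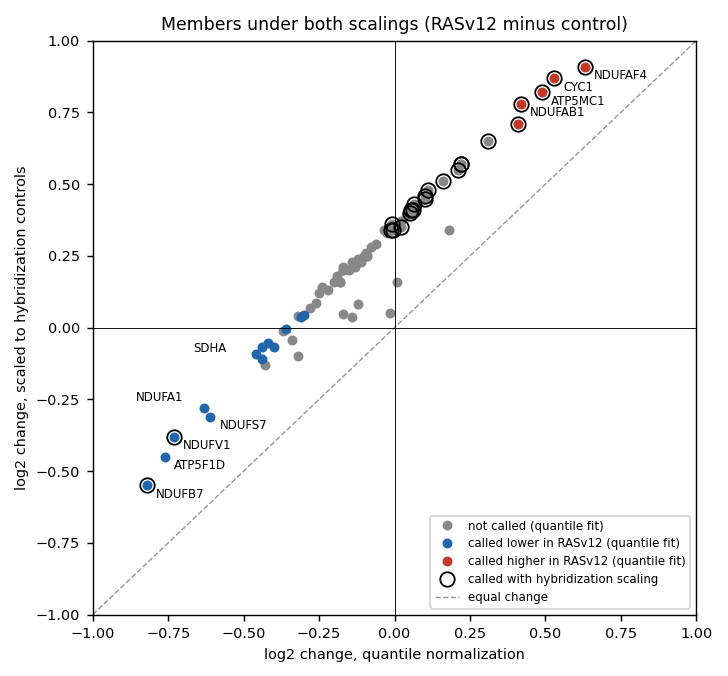
Log2 change of each member in the quantile-normalized fit (x axis) and with arrays scaled to the hybridization controls (y axis), RASv12 minus control, with rings around members called under hybridization scaling. Nearly all points lie well above the dashed line of equal change, with NDUFB7 and NDUFV1 the ringed points below 0 on both axes.

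Calls also changed when single arrays were left out. Such fits have fewer samples, and the share of all genes called in them is not given here. A loss of calls particular to the members can therefore not be told from a general one. Without control replicate 3, 0 members were higher and 4 lower. Without RASv12 replicate 2 there were 1 higher and 5 lower, and without control replicate 1, 3 higher and 6 lower. Without control replicate 2 there were 2 higher and 7 lower, without RASv12 replicate 3, 3 higher and 8 lower, and without RASv12 replicate 1, 2 higher and 11 lower. With the pseudocount at 1 there were 0 higher and 6 lower, again without the share of all genes. The falls of NDUFB7, NDUFV1, NDUFS7 and ATP5F1D were called whichever array was left out, which held for 4 of the 18. Of the 56 members that did not pass, 48 had a 95% interval that lay within a 1.5-fold change either way in the quantile-normalized fit. The interval does not cover the choice of scaling. Among the 48 are NDUFAF5 and NDUFAF7, below the floor on every array, and COX6A2, above it on some arrays only. For these dim genes a narrow interval cannot be read as no change.

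Promoters of 64 members were found in RefSeq (GRCh38.p14) as windows of 250 bases before and 50 after the gene start. They were searched on both strands for letters bound by known regulators of respiratory genes, GCGCA then any base then GCGC for NRF1, CCGGAAG for the ETS factor GABPA and AAGATGGCG for YY1, with matches of different motifs counted separately even where they overlap. The NRF1 letters were in 14 of the 64 member promoters, or 21.9%, against 5.78% of all 35116 promoters and 9.48% of the 9562 promoters of genes named on the array. The GABPA letters were in 28.1% of member promoters, against 10.3% of all and 15.2% of those of genes named on the array. The YY1 letters were in 10.9%, against 1.75% and 3.32%. By call, the NRF1 letters were in 0 of 4 members that rose, 1 of 11 that fell and 13 of 49 that did not pass. The GABPA letters were in 1, 4 and 13 of the same members. A match describes the letters only. The promoters below belong to a c-ring pair called in opposite directions in the quantile-normalized fit, to 3 falling complex I subunits and to SDHA. Matches are in capitals, and each promoter is read 5′ to 3′ on the gene's strand. They lie at chr17:48892537-48892836 (plus strand) for ATP5MC1, chr12:53676034-53676333 (minus) for ATP5MC2, chr19:14572017-14572316 (minus) for NDUFB7, chr11:67606686-67606985 (plus) for NDUFV1, chr19:1383657-1383956 (plus) for NDUFS7 and chr5:218070-218369 (plus) for SDHA.
ATP5MC1: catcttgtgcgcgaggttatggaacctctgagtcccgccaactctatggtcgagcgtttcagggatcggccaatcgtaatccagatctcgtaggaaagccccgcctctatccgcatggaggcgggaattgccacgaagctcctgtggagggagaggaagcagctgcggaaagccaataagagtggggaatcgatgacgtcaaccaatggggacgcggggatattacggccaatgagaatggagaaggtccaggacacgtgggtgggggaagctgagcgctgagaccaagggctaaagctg
ATP5MC2: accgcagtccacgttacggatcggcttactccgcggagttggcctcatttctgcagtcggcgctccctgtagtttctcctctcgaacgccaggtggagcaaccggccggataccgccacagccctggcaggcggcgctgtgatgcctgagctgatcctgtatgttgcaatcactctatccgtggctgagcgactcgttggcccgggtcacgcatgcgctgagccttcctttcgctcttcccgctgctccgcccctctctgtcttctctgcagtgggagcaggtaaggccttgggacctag
NDUFB7: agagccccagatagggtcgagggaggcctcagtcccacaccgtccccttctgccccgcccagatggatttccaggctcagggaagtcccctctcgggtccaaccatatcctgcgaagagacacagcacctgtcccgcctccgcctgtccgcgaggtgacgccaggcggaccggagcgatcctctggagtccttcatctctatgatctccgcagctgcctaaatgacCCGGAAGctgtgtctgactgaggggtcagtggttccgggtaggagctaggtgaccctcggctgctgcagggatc
NDUFV1: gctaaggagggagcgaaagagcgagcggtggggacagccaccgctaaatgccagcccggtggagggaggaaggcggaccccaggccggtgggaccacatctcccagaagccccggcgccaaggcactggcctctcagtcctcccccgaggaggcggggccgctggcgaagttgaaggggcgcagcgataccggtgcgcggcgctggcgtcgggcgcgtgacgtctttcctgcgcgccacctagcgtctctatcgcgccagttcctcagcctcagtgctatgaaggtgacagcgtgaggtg
NDUFS7: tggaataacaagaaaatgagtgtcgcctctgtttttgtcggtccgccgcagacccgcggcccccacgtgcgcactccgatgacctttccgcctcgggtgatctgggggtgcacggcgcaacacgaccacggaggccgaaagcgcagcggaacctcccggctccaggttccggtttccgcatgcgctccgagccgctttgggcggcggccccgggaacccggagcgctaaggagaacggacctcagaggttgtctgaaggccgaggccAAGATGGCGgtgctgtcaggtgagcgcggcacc
SDHA: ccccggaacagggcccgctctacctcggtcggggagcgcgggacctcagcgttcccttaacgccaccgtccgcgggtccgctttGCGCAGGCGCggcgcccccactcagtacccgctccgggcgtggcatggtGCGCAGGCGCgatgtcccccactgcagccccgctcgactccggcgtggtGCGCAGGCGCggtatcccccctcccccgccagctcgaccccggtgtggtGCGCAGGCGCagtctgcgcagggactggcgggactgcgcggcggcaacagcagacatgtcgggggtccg
The SDHA window held 4 NRF1 matches, starting at bases 85, 134, 183 and 232 of the window. The NDUFB7 window held 1 GABPA match, at base 227, and the NDUFS7 window 1 YY1 match, at base 268. The ATP5MC1, ATP5MC2 and NDUFV1 windows held 0 matches to these letters.

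Complex I oxidises NADH and passes its electrons to ubiquinone. Among 28 subunits, 1 rose and 6 fell while 21 did not pass. The median log2 change was -0.12, and 21 of the 28 had a log2 change below 0. Scaled to the hybridization controls, 8 were higher and 2 lower, with a median of 0.23. Array by array, the median difference from the control mean was -0.12, -0.14 and -0.16 on RASv12 arrays 1 to 3, and 0.019, -0.019 and 0.022 on control arrays 1 to 3. The groups did not overlap on that measure.

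NDUFB7, an accessory subunit of the membrane arm, fell the most. Its intensity was 98, 90.8 and 80.4 in RASv12 replicates 1 to 3, against 158, 170 and 194 in control replicates 1 to 3. The groups did not overlap, and the log2 change was -0.82 ± 0.12 (SE, limma adjusted p = 0.0028). The call was kept in all 15 alternative analyses, with -0.55 under hybridization scaling. Its second probe set lay below the floor.

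NDUFV1, the flavoprotein that binds NADH, had intensities of 269, 279 and 294 in RASv12 cells, against 468, 460 and 478 in control cells. The replicates were close together in both groups, and the fall was -0.73 ± 0.092 (adjusted p = 0.0013), or -0.38 with hybridization scaling, called in all 15 alternatives. NDUFS7, which carries the iron-sulfur cluster next to the ubiquinone site, read 151, 116 and 123 in RASv12 cells, against 184, 215 and 224 in control cells. It fell by 0.61 on the log2 scale (SE 0.13, adjusted p = 0.011), a call kept in 14 of 15 alternatives. With hybridization scaling it was at -0.31, with adjusted p = 0.11.

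The other 3 measured core subunits, NDUFV2, NDUFS1 and NDUFS3, did not pass. NDUFV2, the iron-sulfur partner of NDUFV1, read 1145, 859 and 839 in RASv12 cells, against 653, 836 and 766 in control cells. All RASv12 values lay above all control values, though the change of 0.31 ± 0.14 did not pass (adjusted p = 0.14). It was called at 0.65 with hybridization scaling. NDUFS1, the largest subunit, averaged 242 ± 25.4 in RASv12 cells and 236 ± 14 in control cells (SD, n = 3 each), a log2 change of 0.021 with a 95% interval of -0.23 to 0.27. NDUFS3 averaged 630 ± 80.6 in RASv12 cells and 567 ± 89.2 in control cells, a change of 0.11 with an interval of -0.22 to 0.45. Of the 5 measured core subunits 0 rose and 2 fell, with a median of 0.021, and of the 23 accessory subunits 1 rose and 4 fell, with a median of -0.14. Within each array, where scaling cancels, the ratio of NDUFV2 to NDUFV1 was higher than the control mean by 1.41, 0.95 and 0.84 on the log2 scale on RASv12 arrays. On control arrays it differed from that mean by -0.19, 0.19 and 0.0062. This pair was chosen after its values were seen, so no test is given.

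NDUFAB1, the mitochondrial acyl carrier protein and also a complex I subunit, was the complex I member that rose. It read 1382, 1435 and 1234 in RASv12 cells, against 1024, 1024 and 912 in control cells, with no overlap. The rise was 0.42 ± 0.10 (adjusted p = 0.019) and 0.78 with hybridization scaling, and the call was kept in 11 of 15 alternatives. NDUFA1, a small membrane subunit encoded on the X chromosome, read 790, 680 and 772 in RASv12 cells, against 1170, 945 and 1365 in control cells. Its fall of -0.63 ± 0.15 (adjusted p = 0.019) was at -0.28 and not called with hybridization scaling. NDUFA13 and NDUFA2, accessory subunits, fell by 0.31 and 0.30 on the log2 scale, both with adjusted p = 0.044. Those calls were lost in 12 and 13 of 15 alternatives and turned to 0.038 and 0.044 with hybridization scaling.

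**Figure D3:**
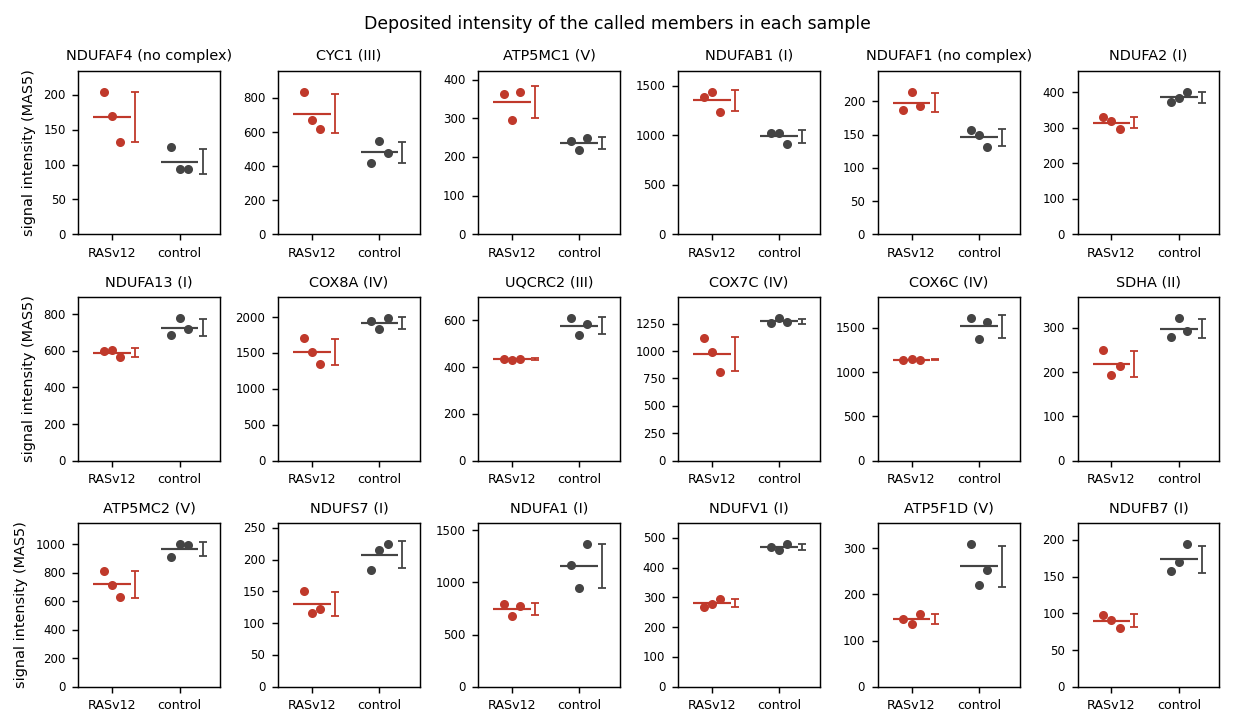
Deposited MAS5 signal intensity (y axes, linear, from 0) of the 18 called members in each sample, with RASv12 left and control right, a line at the mean and a bar of 1 SD (n = 3 arrays each), ordered from the largest rise to the largest fall. In every panel the groups do not overlap, and replicate spread differs, as in UQCRC2 with 431 to 436 in RASv12 cells.

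Complex II is succinate dehydrogenase, the enzyme that the chain shares with the tricarboxylic acid cycle. All 3 measured subunits had log2 changes below 0, 1 of them called, with a median of -0.43. With the mean of each gene's probe sets, the median was -0.22, the value of SDHD, whose second probe set lay below the floor on all arrays. SDHA, the flavoprotein that oxidises succinate, read 251, 193 and 214 in RASv12 cells, against 280, 322 and 294 in control cells. It fell by 0.44 on the log2 scale (SE 0.12, adjusted p = 0.029). SDHD, a membrane anchor, averaged 143 ± 26.7 in RASv12 cells and 199 ± 25.8 in control cells (SD, n = 3 each), a change of -0.43 with adjusted p = 0.081. SDHC, the other anchor, averaged 521 ± 62.2 in RASv12 cells and 585 ± 30.8 in control cells, a change of -0.18 with adjusted p = 0.28. Its 3 other probe sets were at -0.16, -0.068 and 0.33, and 0 of them was called. With hybridization scaling, these changes were -0.11 for SDHA, -0.13 for SDHD and 0.16 for SDHC, and 0 of the 3 was called. Complex II had the lowest median of the 5 complexes under both scalings, on 3 genes, and the difference from the others was not tested. The probe sets used for SDHA and SDHC are of a kind that may cross-hybridize with similar transcripts.

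Complex III moves electrons from ubiquinol to cytochrome c. Among 7 subunits, 1 rose and 1 fell while 5 did not pass. The median log2 change was -0.0047, and 0.35 with hybridization scaling. CYC1, the cytochrome c1 that hands electrons to cytochrome c, read 835, 673 and 616 in RASv12 cells, against 419, 546 and 476 in control cells. It rose by 0.53 ± 0.14 (adjusted p = 0.028), and by 0.87 with hybridization scaling, and kept its call in 8 of 15 alternatives. UQCRC2, a core protein on the matrix side, read 436, 431 and 436 in RASv12 cells, against 609, 536 and 586 in control cells. It fell by 0.40 on the log2 scale (SE 0.10, adjusted p = 0.02), and was at -0.066 with hybridization scaling. UQCRC1, the partner of UQCRC2 in the complex, averaged 725 ± 121 in RASv12 cells and 710 ± 49.2 in control cells (SD, n = 3 each), with a log2 change of -0.0047. UQCRB, a ubiquinone-binding subunit, averaged 926 ± 82.4 in RASv12 cells and 1186 ± 147 in control cells, a change of -0.37 with adjusted p = 0.079. Another of its 3 probe sets, at -0.53, was called lower over all probe sets. The within-array ratio of CYC1 to UQCRC2, a pair chosen after its values were seen, lay 1.21, 0.91 and 0.77 above the control mean (log2) on RASv12 arrays. On control arrays it lay at -0.27, 0.30 and -0.029.

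Complex IV, cytochrome c oxidase, has core subunits encoded by mitochondrial DNA and a set of small nuclear ones, some with isoforms for heart and skeletal muscle. Among 12 subunits, 0 rose and 3 fell while 9 did not pass. The median log2 change was -0.12, and 0.16 with hybridization scaling, which gave 2 higher and 0 lower. The 3 that fell were small membrane subunits. COX6C read 1142, 1143 and 1132 in RASv12 cells, against 1610, 1370 and 1569 in control cells, a change of -0.44 ± 0.10 (adjusted p = 0.016). COX7C read 1120, 996 and 812 in RASv12 cells, against 1253, 1301 and 1262 in control cells, a change of -0.42 ± 0.11 (adjusted p = 0.03). COX8A read 1702, 1511 and 1342 in RASv12 cells, against 1947, 1829 and 1984 in control cells, a change of -0.36 ± 0.10 (adjusted p = 0.039). With hybridization scaling the changes were -0.069, -0.055 and -0.0056, and 0 of the 3 was called.

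Of the other isoforms of complex IV that most tissues use, COX4I1, COX6A1, COX6B1 and COX7A2 were bright and did not pass. COX4I1, the regulatory subunit to which ATP binds, read 1723, 1773 and 1778 in RASv12 cells, against 1778, 1833 and 1838 in control cells, a log2 change of -0.06 with a 95% interval of -0.28 to 0.16. COX6A1 averaged 2148 ± 188 in RASv12 cells and 2146 ± 250 in control cells (SD, n = 3 each), a change of -0.035. COX6B1 had a change of -0.12 and COX7A2 one of -0.32, with adjusted p = 0.5 and 0.099. The muscle isoforms were dim. COX7A1 averaged 61.1 ± 7.4 in RASv12 cells and 74.5 ± 11.6 in control cells, a change of -0.17 with adjusted p = 0.45. COX6A2 read 17.2, 28.5 and 36.8 in RASv12 cells, against 39.3, 23.9 and 31 in control cells, above the floor on 4 of 6 arrays. The isoforms COX4I2, COX6B2, COX8C and NDUFA4L2 were not analysed here.

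Complex V couples a rotating ring of c subunits in the membrane to the catalytic F1 head. Among 15 subunits, 1 rose and 2 fell while 12 did not pass. The median log2 change was -0.17, and 0.20 with hybridization scaling. Neither subunit of the catalytic pair passed. ATP5F1B, the beta subunit that makes ATP, read 2265, 2090 and 1944 in RASv12 cells, against 1975, 2194 and 2016 in control cells. Its change was -0.0082 with a 95% interval of -0.23 to 0.21, and with hybridization scaling it was called higher at 0.36. ATP5F1A, the alpha subunit, averaged 1699 ± 173 in RASv12 cells and 1913 ± 65.8 in control cells (SD, n = 3 each), a change of -0.20 with adjusted p = 0.19. ATP5F1D, the delta subunit of the central stalk, read 147, 136 and 157 in RASv12 cells, against 308, 221 and 252 in control cells. It fell by 0.76 on the log2 scale (SE 0.14, adjusted p = 0.0067), kept the call in 14 of 15 alternatives, and was at -0.45 with adjusted p = 0.058 with hybridization scaling. Its second, dimmer probe set had a change of -0.22 and was not called.

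The c ring is built from a protein whose mature form is the same whether it comes from ATP5MC1, ATP5MC2 or ATP5MC3, and these genes differ in their import sequences and promoters. ATP5MC1 read 363, 295 and 368 in RASv12 cells, against 242, 218 and 248 in control cells. It rose by 0.49 ± 0.12 (adjusted p = 0.024), and by 0.82 with hybridization scaling, and kept its call in 9 of 15 alternatives. ATP5MC2 read 816, 715 and 629 in RASv12 cells, against 910, 1000 and 995 in control cells. It fell by 0.46 on the log2 scale (SE 0.10, adjusted p = 0.016), and was at -0.093 and not called with hybridization scaling. That call was kept in 8 of 15 alternatives. ATP5MC3 averaged 1077 ± 144 in RASv12 cells and 1193 ± 54.1 in control cells (SD, n = 3 each), a change of -0.19 with adjusted p = 0.22. Within arrays, the ratio of ATP5MC1 to ATP5MC2 lay 0.87, 0.76 and 1.26 above the control mean (log2) on RASv12 arrays and at 0.13, -0.16 and 0.031 on control arrays. This ratio differed 1.95-fold between the group means, free of array scaling, for a pair chosen after its values were seen. Of the 4 peripheral stalk subunits and the 3 other membrane subunits measured, 0 were called.

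Differences between complexes were not tested. In complexes I, II and IV, the RASv12 arrays all lay below the control arrays in the median over subunits. For complex IV that median was -0.10, -0.15 and -0.22 on RASv12 arrays 1 to 3, against 0.043, -0.062 and 0.022 on control arrays 1 to 3. For complex V it was -0.10, -0.12 and -0.17 on RASv12 arrays, against 0.045, -0.094 and -0.037 on control arrays, also without overlap. For complex III it was -0.073, -0.063 and 0.025 on RASv12 arrays, against 0.062, -0.064 and 0.008 on control arrays, and the groups overlapped. Over all genes the groups overlapped with quantile normalization. With hybridization scaling the RASv12 arrays lay above the control arrays in complexes I, III, IV and V, and overlapped them in complex II. The same separation held over all genes with that scaling. Their median was 0.075, 0.18 and 0.33 on RASv12 arrays 1 to 3, against 0.035, -0.014 and -0.02 on control arrays 1 to 3. The share of members called ran from 20% in complex V to 33.3% in complex II, around the 29.4% of all genes.

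**Figure D4:**
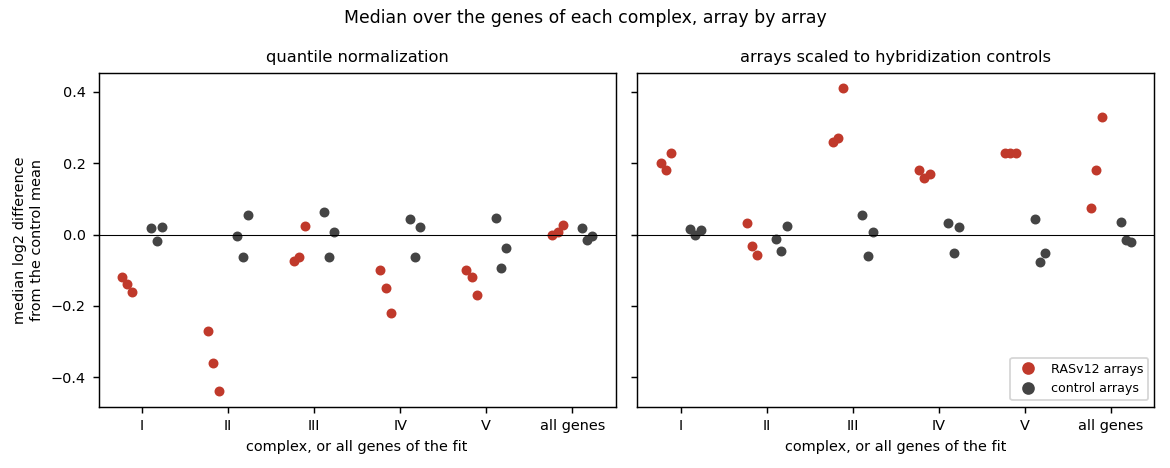
Median over the genes of each complex, and over all genes, of the log2 difference from the control mean (y axis) on each of 3 RASv12 arrays (red, left) and 3 control arrays (dark grey, right), with quantile normalization in the left panel and hybridization scaling in the right panel. On the left the RASv12 arrays lie at -0.27 to -0.44 for complex II and nearer 0 elsewhere. On the right the RASv12 arrays lie above 0 for all genes and for every complex except II.

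Of the 9 members outside the complexes 2 rose and 0 fell, a called share of 22.2% against 29.4% of all genes. NDUFAF4, a complex I assembly factor, read 204, 169 and 132 in RASv12 cells, against 125, 93.6 and 93.9 in control cells, a rise of 0.63 ± 0.18 (adjusted p = 0.038). NDUFAF1, another such factor, read 187, 214 and 193 in RASv12 cells, against 157, 149 and 132 in control cells, a rise of 0.41 ± 0.11 (adjusted p = 0.028). With hybridization scaling they were called at 0.91 and 0.71. Each kept its call in only 2 of the 6 fits that left out 1 array. NDUFAF3 did not pass, at 0.022. COX7A2L, a factor of supercomplex assembly, averaged 781 ± 31.1 in RASv12 cells and 657 ± 33.6 in control cells (SD, n = 3 each), a change of 0.22 with adjusted p = 0.11. NDUFAF5, NDUFAF7, NDUFB2-AS1 and ATP5MC2P1 lay below the floor on all 6 arrays. NDUFB2-AS1 is antisense to NDUFB2, and how the probes treat strand was not tested.

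Among genes that assemble the complexes or make, import and encode mitochondrial proteins, more were called higher than lower in each of 4 lists. Of 23 further assembly factors 7 rose and 2 fell, with a median of 0.12, or 10 and 0 with a median of 0.38 under hybridization scaling. SCO2, a copper chaperone of complex IV, rose by 1.49 ± 0.13 (adjusted p = 2.1e-04), TMEM70, needed for ATP synthase assembly, by 0.84 ± 0.095, and the insertase OXA1L by 0.60 ± 0.089. SURF1, a complex IV assembly factor named after its values were seen, fell by 0.57 on the log2 scale and was at -0.28 with hybridization scaling. Of 51 mitochondrial ribosome proteins, which translate the subunits encoded by mitochondrial DNA, 16 rose and 2 fell, with a median of 0.24, or 30 and 1 with a median of 0.55 under hybridization scaling. MRPL17 rose by 1.18 ± 0.10, MRPS12 by 0.93 ± 0.11 and MRPL15 by 0.84 ± 0.10, with adjusted p from 1.9e-04 to 9.7e-04. Of 22 genes of mitochondrial protein import 10 rose and 0 fell, with a median of 0.32, or 14 and 0 with a median of 0.64 under hybridization scaling. GRPEL1, a cofactor of the matrix HSP70, rose by 1.45 ± 0.10, and the translocase subunit TIMM44 by 0.78 ± 0.11 and the processing peptidase subunit PMPCA by 0.69 ± 0.11. Of 13 genes of mitochondrial DNA upkeep 4 rose and 1 fell, with a median of 0.29, or 9 and 0 with a median of 0.57 under hybridization scaling. That list also held the mitochondrial protease genes LONP1, CLPP and CLPX. LONP1 was its 1 fall, at -0.39, CLPX was among the 4 rises, at 0.53, and CLPP did not pass. POLRMT, the mitochondrial RNA polymerase, rose by 0.83 ± 0.10, the helicase TWNK, above the floor on 5 of 6 arrays, by 0.84 ± 0.16 and the termination factor family member MTERF3 by 0.53 ± 0.14. Among all genes 13.9% were higher and 15.5% lower in the quantile-normalized fit, and 23.6% and 8.7% with hybridization scaling.

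Genes that feed the chain were called in both directions, with more rises than falls among the electron carriers. Of 17 electron carriers and enzymes that reduce or make ubiquinone, 5 rose and 1 fell, or 6 and 0 with hybridization scaling. Their median was -0.067, or 0.19 with hybridization scaling. The called share of this list was 35.3%, against 29.4% of all genes, of which 13.9% were higher and 15.5% lower. SQOR, which oxidises sulfide and reduces ubiquinone, rose by 2.05 ± 0.11, with 814 ± 54.1 in RASv12 cells and 183 ± 17.3 in control cells (SD, n = 3 each, limma adjusted p = 2.7e-05). COQ10B, a ubiquinone-binding protein, rose by 0.78 ± 0.095 and PDSS1, which makes the ubiquinone side chain, by 0.66 ± 0.11. Cytochrome c itself, CYCS, was 1754 ± 194 in RASv12 cells and 978 ± 146 in control cells, a rise of 0.81 ± 0.15 (adjusted p = 0.0068). It was named after its values were seen. Of 16 genes of pyruvate dehydrogenase and the tricarboxylic acid cycle 3 rose and 4 fell, with a median of -0.078, or 0.26 with hybridization scaling. IDH2, the NADP-dependent isocitrate dehydrogenase, fell to 74.1 ± 11.2 in RASv12 cells, against 241 ± 18.7 in control cells (SD, n = 3 each, limma adjusted p = 3.0e-04), while IDH3A, a subunit of the NAD-dependent enzyme of the cycle, rose by 0.95 ± 0.12 and PDHX, a pyruvate dehydrogenase component, by 0.68 ± 0.10. Of 5 pyruvate dehydrogenase kinases and phosphatases 1 fell, PDK2 at -0.44, not called with hybridization scaling. Of 7 nucleotide and phosphate carriers and porins 1 rose, VDAC2 at 0.38, and 1 fell, SLC25A4 at -0.35, a call lost with that scaling.

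Of 14 transcription factors linked to respiratory genes 5 rose and 1 fell, with a median of 0.14, or 6 and 1 with a median of 0.41 under hybridization scaling. EPAS1, a hypoxia-inducible factor, fell by 1.79 on the log2 scale (adjusted p = 4.8e-05), while MYC rose by 1.74 ± 0.13 and ESRRA, an orphan receptor that works with PGC-1 coactivators, by 0.75 ± 0.10. HIF1A, the other hypoxia-inducible factor on the list, rose by 0.34 ± 0.10 (limma adjusted p = 0.036), and by 0.71 with hybridization scaling. The remaining rises were TFAM at 0.63 and TFB2M at 0.50. NRF1 averaged 30.4 ± 15.5 in RASv12 cells and 31.4 ± 11 in control cells (SD, n = 3 each), near the floor, and PPARGC1A lay below it, so that neither could be read at this signal. GABPA averaged 47.6 ± 2.79 in RASv12 cells and 27.9 ± 11.6 in control cells, above the floor on 5 of 6 arrays. Its change of 0.62 ± 0.20 did not pass (limma adjusted p = 0.058), and it was called at 0.80 with hybridization scaling. YY1 was called under neither scaling, at 0.13 and 0.47. NRF1, PPARGC1A, GABPA, YY1, HIF1A, TFAM and TFB2M were named after their values were seen. Of 10 antioxidant and uncoupling genes 1 rose and 4 fell, with a median of -0.059, or 0.12 with hybridization scaling. Glutaredoxin GLRX2 rose by 0.90 ± 0.10, while catalase, CAT, changed by -0.77 ± 0.11 and the lipid peroxidase GPX4 by -0.72 ± 0.11, both falls called under either scaling.

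**Figure D5:**
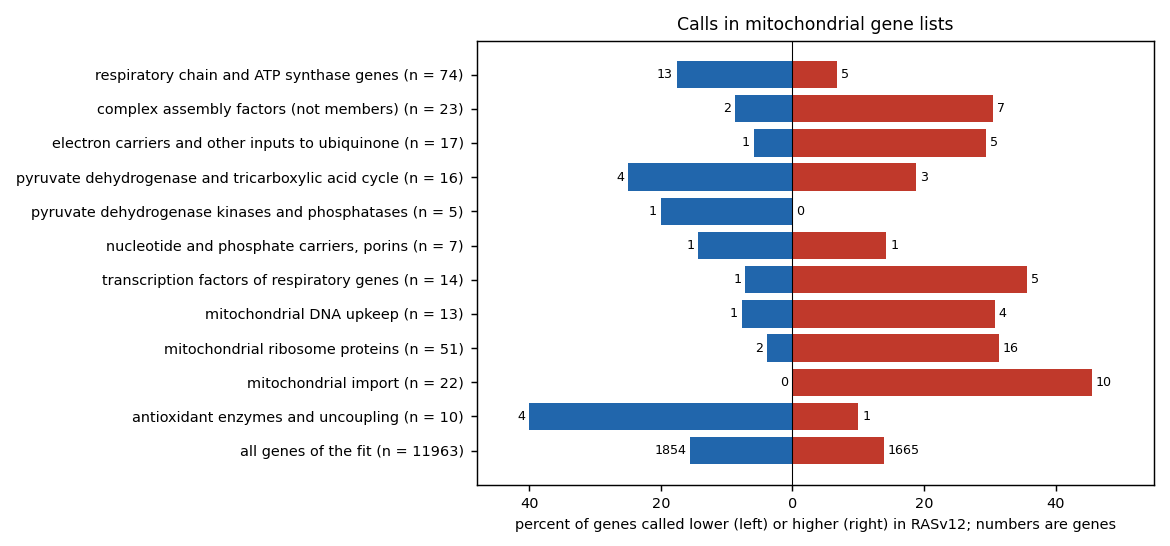
Percent of genes called lower (blue, left) or higher (red, right) in RASv12 cells for the members, 10 lists of other mitochondrial genes and all genes, with gene numbers at the bar ends. The members have 13 lower and 5 higher of 74, protein import 0 lower and 10 higher of 22, and ribosome proteins 2 lower and 16 higher of 51.

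Several probe sets were read for 21 members, and 0 of these had probe sets called in opposite directions. Most of these probe sets were not called, so this is a weak check. Uncalled probe sets differed in sign in some genes, as in SDHC at -0.18 and 0.33, COX5B at 0.16 and -0.15 and ATP5MG at -0.22 and 0.30. Among 16 members with more than 1 probe set above the floor on every array, 5 had one called and another not. COX7C was called lower on 2 of its 3 probe sets, at -0.42 and -0.57, and the other was at -0.14. UQCRC2 was called at -0.40 on its brightest probe set and not on the other, at -0.27. NDUFA6, an accessory subunit of complex I that did not pass at -0.11, had a dimmer probe set called at -0.39. Of the probe sets used, 7 of 74 were of the kind that may cross-hybridize, among them those of the called members SDHA and COX7C.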

How the data were processed

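Gene expression was measured in 6 samples, 3 RASv12 and 3 control, grouped by their titles. The authors deposited 1 table of linear signal intensity for each probe set, made with MAS5 per the submitters' processing notes, whose version and target value were not given. The trimmed mean (2% off each end) was 100.0 on every array, so arrays had been scaled before deposit. Precision is limited by having 3 arrays a group.

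Of 22283 probe sets, 68 controls were left out and 22215 remained, 19065 of them with 1 gene symbol, 1043 with several and 2107 with none, and 19053 of the named ones matched RefSeq. Each gene was read from its brightest probe set by mean normalized value. Here, log2(intensity + 16) was quantile normalized between arrays and 11963 genes were fitted with limma 3.58.1 (lmFit, eBayes) in R 4.3.3. P-values were Benjamini-Hochberg adjusted over all genes, with a threshold of 0.05. The procedure was tested on simulated data. Sequences came from RefSeq tables, GRCh38.p14.

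The members and lists were chosen with earlier results of these data known. Named are the 8 largest called rises and falls, the 3 members per complex with the largest moderated t, isoforms, succinate dehydrogenase, complex I core and c-ring genes, and 3 genes per list. NDUFA13, NDUFA2, NDUFB4, NDUFA6, UQCRC1, ATP5IF1 and other members were named after their values were seen. Alternatives were the scaling (none, median, hybridization controls), the pseudocount, a filter on dim probe sets, the mean of probe sets, the replicate number as a block, each array left out, RefSeq symbols, and complexes by prefix.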

Additional observations from a re-analysis of the deposited data

How the results depend on the processing

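With arrays scaled to the hybridization controls, 21 members were higher and 2 lower, against 5 and 13. The medians were then 0.22 over all members, and 0.23, -0.11, 0.35, 0.16 and 0.20 for complexes I to V, against -0.12 over all members and -0.12, -0.43, -0.0047, -0.12 and -0.17. Context lists then had 89 genes higher and 5 lower, against 52 and 17. Of 52 members below 0, 37 were above 0 with that scaling, and 0 went the other way. Among these, 5 were called in either fit, NDUFA2 (0.044), NDUFA13 (0.038), NDUFB4 (0.34), ATP5F1B (0.36) and ATP5IF1 (0.34). Median centring gave 5 members lower, a complex I median of -0.075 and a complex V median of -0.11, and the values as deposited gave -0.10 for complex I. With a pseudocount of 1, 0 members were higher and 6 lower, and 11 context genes were lower. With 64 the complex II median was -0.34. The mean of a gene's probe sets gave -0.22 for complex II and -0.10 for complex V. Complexes by prefix alone gave -0.091 for complex I.

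No label says whether the replicate numbers pair the samples. Deviations of same-numbered samples correlated at -0.226, -0.0282 and -0.07, which shows no shared deviation but cannot exclude pairing. With the replicate block, 2 members were higher and 5 lower, and the share of all genes called in that fit is not given here.

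Leaving out 1 array gave 0 to 3 members higher and 4 to 11 lower, with fewest calls without control replicate 3, which also gave the lowest count of lower context genes, 11 to 15. The median over members ran from -0.16 to -0.082, and for complexes I to V from -0.18 to -0.089, -0.41 to -0.36, -0.079 to 0.035, -0.16 to -0.066 and -0.20 to -0.11. Over single members, 106 of 1104 alternative values lost a call with the sign kept, 18 gained one with the sign kept, and 5 changed sign with a call in either fit. The other 975 had the same call status, whatever the sign of uncalled values. RefSeq symbols changed no count.
The filters on dim probe sets kept both counts of members within 1.5 times. Members below the bacterial control floor give no change that can be read.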
